A study of Homo sapiens with 8 samples.

Results

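The step from D4 to D7 compares IMR90 fibroblasts that had been kept in medium of 2 successive ages, and its 4 libraries were taken from the 8 of the study by their labels. IMR90 is a strain of normal human lung fibroblasts with a limited lifespan. The donors of the medium were IMR90 ER:RAS cells in every group. They carry an oncogenic RAS fused to a hormone-binding domain of the oestrogen receptor, so that 4-hydroxytamoxifen (4-OHT) switches RAS on and the donors enter senescence. The medium was collected on day 4 of induction for the D4 group and on day 7 for the D7 group, and on days 0 and 10 for the groups at either end. In all 4 groups the recipients were normal IMR90 cells, which stayed in that medium for 3 days. Each group has 2 libraries, 1 from each of 2 independent experiments, so every comparison rests on 2 cultures a group, and the medium of the donors was the only difference between groups that the labels name.

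Senescent cells secrete a mixture of cytokines, chemokines, proteases and growth factors that is called the senescence-associated secretory phenotype (SASP), and neighbouring cells that sense it can take on part of the same programme. In fibroblasts, NF-κB is a main driver of the inflammatory genes of this mixture, and it also induces its own inhibitors, which makes those inhibitors a readout of its activity. Fibroblasts can also hold a myofibroblast state, in which they express the actins and actin-binding proteins of smooth muscle.

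Total counts were between 11708193 and 13395912 a library, and 13798 of the 27696 genes had enough counts to be tested. Levels are given as CPM, the counts scaled to a common library size with TMM factors, and differences between days as log2 values. The 11 fibroblast markers summed to 31693 and 34961 CPM in the 2 D4 libraries and to 30390 and 32459 CPM in the 2 D7 libraries. The markers of epithelial cells stayed at or under 3.50 CPM and those of leukocytes at or under 4.11 CPM in every library, and PTPRC, which defines leukocytes, had at most 1 count. Endothelial markers summed to between 43.0 and 53.8 CPM at D4 and between 70.8 and 71.4 CPM at D7, nearly all of it from TEK, while PECAM1 had 3 and 3 counts at D4 and 13 and 3 at D7 and CDH5 had 3 and 0, then 5 and 4. In replicate 2 of D10 the sum of the fibroblast markers was 10132 CPM, the lowest of the 8 libraries, and the main results that use D10 are also given without it. In bulk RNA, a smaller number of cells that express a gene and less RNA of it in each cell cannot be told apart.

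No gene was called between D7 and D4 in the fit of all 8 libraries. The spread of the differences over genes was near that of the neighbouring steps in experiment 1 and smaller in experiment 2. With the experiment as a block, the quasi-likelihood test of edgeR, adjusted by the Benjamini-Hochberg method, called 0 of 13798 genes (0%) between D7 and D4, and 509 (3.69%) had an unadjusted p under 0.05, of which 299 (2.17%) were higher and 210 (1.52%) lower at D7. DESeq2 called 4 genes, namely C3, PTGS2, CXCL10 and POU2F2, all of them higher at D7, with 305 at an unadjusted p under 0.05. A fit of the 4 libraries alone, in which the D0 and D10 libraries no longer contribute to the estimate of the spread, called 43 genes, 34 higher and 9 lower. It leaves fewer residual degrees of freedom than the 3 of the fit of all 8 libraries, so its calls rest mostly on a spread shared across genes. For comparison, the same test over all 8 libraries called 38 genes (0.275%) between D4 and D0, of which 12 (0.087%) were higher at D4. It called 44 (0.319%) between D10 and D7, with 42 (0.304%) higher and 2 (0.0145%) lower at D10. Between D10 and D0 it called 688 (4.99%), with 350 (2.54%) higher and 338 (2.45%) lower at D10. The SD over genes of the log2 difference between D7 and D4 was 0.43 in experiment 1 and 0.35 in experiment 2, against 0.45 and 0.46 for the step before it and 0.40 and 0.73 for the step after it. Libraries of the same day differed between the experiments with an SD from 0.57 to 0.76.

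Few of these differences were shared. Across genes, the D7 minus D4 values of the 2 experiments had a Pearson r of 0.097 and a Spearman rho of 0.096, and 53.6% of genes had the same sign in both. This is a description across genes, which are not independent replicates. At D7, 3622 genes (26.3%) were higher in both experiments and 3768 (27.3%) lower in both. For 1262 genes (9.15%) both D7 libraries were above both D4 libraries, and for 1194 (8.65%) both were below. These shares are the background for each list of genes below. For every gene named from here on, the adjusted p of D7 against D4 from the edgeR test was 0.916 or higher, except for C3 and PTGS2.

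The gene with the smallest p was C3 (ENSG00000125730.16, chromosome 19 from 6677704 to 6730562 on GRCh38), the central protein of the complement cascade. C3 had 38 and 34 counts at D4 and 286 and 172 at D7, in experiments 1 and 2, or 2.95 and 2.53 CPM against 21.8 and 13.1 CPM. Both D7 libraries lay far above both D4 libraries, while the D4 libraries were at the level of D0, where C3 had 2.68 and 2.91 CPM. The fitted log2 difference was 2.64 with a standard error of 0.26, a 6.22-fold higher level at D7 (edgeR adjusted p = 0.068). The adjusted p was 3.99e-13 with DESeq2 and 6.59e-20 in the fit of the 4 libraries alone. Both values lean on a spread shared across genes, since 2 cultures a group measure little of it for a single gene. When 1 library was left out, the fitted log2 difference of C3 ranged from 2.41 without replicate 1 of D4 to 2.85 without replicate 2 of D4. C3 reached 417 and 216 CPM at D10. Of the other complement genes, C1S, a protease of the classical pathway, had 359 and 402 CPM at D4 and 445 and 538 CPM at D7. Of the 10 tested genes of the complement list, 4 were higher and 1 lower in both experiments, and the list had a median log2 difference of 0.21.

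**Figure D1:**
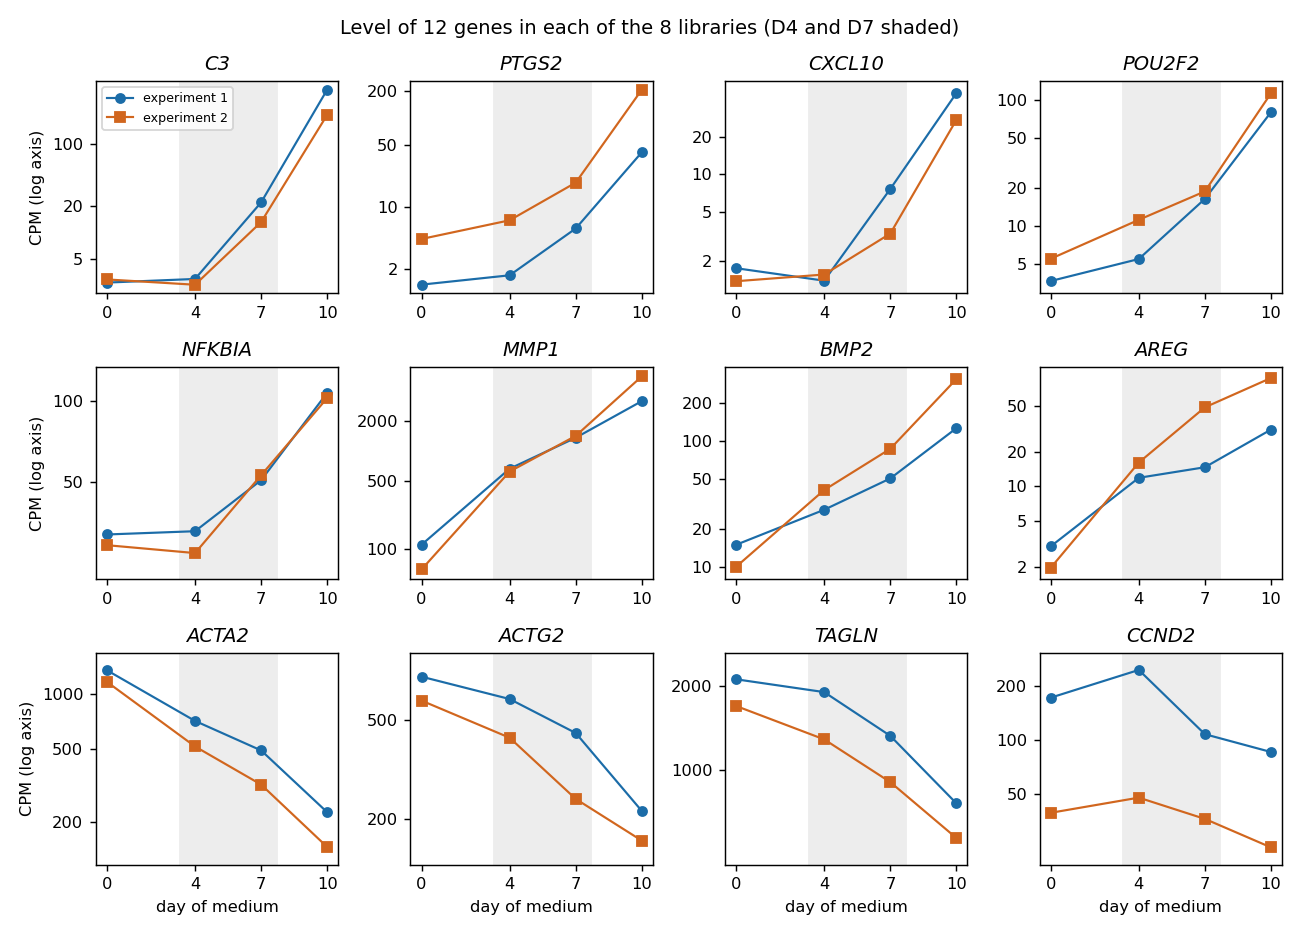
CPM (log axis) of 12 genes by the day of the conditioned medium, in experiment 1 (circles) and experiment 2 (squares), with D4 and D7 shaded. Between D4 and D7 both lines go up in the 8 panels of the upper 2 rows and down in the 4 panels of the lowest row, and C3 goes from 2.95 and 2.53 to 21.8 and 13.1 CPM.

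Among the 42 lists of functions, NF-κB targets had the most members past an unadjusted p of 0.05. None of its members is a gene that the study names or shows for these samples. The study does report NF-κB signalling among the enriched categories of its upregulated clusters in them. The list was also written with earlier results of these data known, so its counts are not independent evidence. Of the 19 tested genes of this list 14 were higher in both experiments and none lower in both, against 26.3% and 27.3% of all genes. Both D7 libraries were above both D4 libraries for 10 of the 19, against 9.15% of all genes. Past an unadjusted p of 0.05 were 7 of the 19, all higher at D7, against 2.17% of all genes. The median log2 difference was 0.46 (0.50 in experiment 1 and 0.34 in experiment 2), while that of all genes was 0.00 in experiment 1 and -0.01 in experiment 2. No member was called by the edgeR test.

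NFKBIA (ENSG00000100906.10, chromosome 14 from 35401511 to 35404749) encodes IκBα, the inhibitor that holds NF-κB in the cytoplasm and is induced by it. It had 32.7 and 27.1 CPM at D4 and 50.8 and 53.01 CPM at D7, with the 2 libraries of each day close to each other and no overlap. The log2 difference was 0.80 with a standard error of 0.14. PTGS2 (ENSG00000073756.11, chromosome 1 from 186671791 to 186680427), the inducible enzyme of prostaglandin synthesis, had 1.71 and 7.08 CPM at D4 and 5.73 and 18.8 CPM at D7. Its levels differed between the experiments, so the days overlapped, but within each experiment D7 was higher, by 1.66 and 1.39 on the log2 scale. The fitted log2 difference of PTGS2 was 1.54 with a standard error of 0.22 (adjusted p = 0.471 with edgeR and 9.60e-04 with DESeq2), and it passed in edgeR without replicate 1 or 2 of D10, with an adjusted p of 0.00739 and 0.0353. NFKBIZ, a nuclear IκB protein that directs a subset of NF-κB target genes, had 10.0 and 48.8 CPM at D4 and 28.4 and 68.0 CPM at D7. It too differed more between experiments than between days, with log2 differences of 1.49 and 0.48 within them.

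A further 4 members had both D7 libraries above both D4 libraries and an unadjusted p under 0.05. IRAK2, a kinase of interleukin-1 receptor signalling, had 14.9 and 13.9 CPM at D4 and 31.9 and 19.4 CPM at D7. ICAM1, an adhesion molecule for leukocytes, had 16.6 and 23.8 CPM at D4 and 51.3 and 30.1 CPM at D7. The difference of ICAM1 was much larger in experiment 1, with 1.62 against 0.34 on the log2 scale. Where exons of another gene lie on the other strand the reads may be shared, which concerns 23.6% of the exonic length of ICAM1. SOD2, the mitochondrial superoxide dismutase, had 171 and 212 CPM at D4 and 303 and 279.5 CPM at D7. TNFAIP2 had 24.1 and 20.1 CPM at D4 and 32.0 and 28.9 CPM at D7. TNFAIP3, the ubiquitin-editing enzyme A20 that shuts NF-κB signalling down, had 4.04 and 7.31 CPM at D4 and 9.17 and 11.2 CPM at D7, a log2 difference of 0.97 with a standard error of 0.55. By contrast, the fitted log2 differences of the NF-κB subunits themselves were 0.21 for NFKB1 and 0.23 for NFKB2, higher in both experiments, and 0.21 for RELB, which had opposite signs.

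Promoters of 16 of the 19 members are in the RefSeq table used here (GRCh38.p14), and 9 of these 16 genes hold a match to the NF-κB consensus, the κB motif, on either strand within the 250 bases before a start site. Over the 10021 tested genes with a promoter in that table the share was 8.19%, and over all 35116 promoters it was 5.21%. A match is only a run of letters and was not tested as a binding site. The list was chosen as NF-κB targets, so its share of matches follows in part from that choice and says nothing about D7 against D4. The windows of NFKBIA, TNFAIP3 and the chemokine gene CXCL10, which stand for an inhibitor, a feedback enzyme and a secreted product, are printed 5′ to 3′ with the matches in capitals. CXCL10 is not a member of this list.
NFKBIA promoter, chr14:35404750-35404999, minus strand: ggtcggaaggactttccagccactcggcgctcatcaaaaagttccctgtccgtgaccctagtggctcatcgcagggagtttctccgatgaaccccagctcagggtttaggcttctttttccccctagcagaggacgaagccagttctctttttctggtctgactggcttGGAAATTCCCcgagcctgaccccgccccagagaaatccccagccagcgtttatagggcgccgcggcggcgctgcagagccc
TNFAIP3 promoter, chr6:137867009-137867258, plus strand: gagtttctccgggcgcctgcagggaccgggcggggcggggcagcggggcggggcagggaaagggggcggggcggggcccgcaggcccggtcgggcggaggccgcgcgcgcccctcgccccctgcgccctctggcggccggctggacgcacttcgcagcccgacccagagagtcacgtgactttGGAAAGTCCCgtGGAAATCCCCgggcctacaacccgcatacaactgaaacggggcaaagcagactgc
CXCL10 promoter, chr4:76023498-76023747, minus strand: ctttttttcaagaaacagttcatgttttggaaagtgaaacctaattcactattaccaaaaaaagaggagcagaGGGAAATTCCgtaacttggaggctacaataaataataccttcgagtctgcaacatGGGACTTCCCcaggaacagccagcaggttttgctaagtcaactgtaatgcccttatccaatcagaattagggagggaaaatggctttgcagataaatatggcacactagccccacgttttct
The match of NFKBIA begins 81 bases before the start site, those of TNFAIP3 begin 67 and 55 bases before it, and those of CXCL10 begin 177 and 122 bases before it.

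Among the secreted inflammatory genes, chemokines and cytokines were divided. CXCL10 (ENSG00000169245.5, chromosome 4 from 76021117 to 76023497), an interferon- and NF-κB-inducible chemokine for T cells, had 18 and 21 counts at D4 and 100 and 44 at D7. That was 1.40 and 1.57 CPM against 7.64 and 3.34 CPM, with both D7 libraries above D4, and a log2 difference of 1.81 with a standard error of 0.33. CXCL1, a chemokine for neutrophils, had 0 and 4 counts at D4 and 9 and 10 at D7, so it had few counts on either day, against 28.9 and 90.3 CPM at D10. CXCL8, which encodes IL-8, had 0.931 and 4.85 CPM at D4 and 4.28 and 7.75 CPM at D7, higher at D7 within each experiment but overlapping across them. CCL2, a chemokine for monocytes, had 375 and 403 CPM at D4 and 485 and 530.4 CPM at D7.

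Interleukins had few counts or no shared direction at this step. IL1B had 1 and 2 counts at D4 and 1 and 4 at D7, and IL1A had 1 and 1 and then 0 and 0, so that IL1A was at the floor of 3 counts on both days and IL1B close to it, while both were called higher at D10 against D0. IL6 had 3.18 and 9.47 CPM at D4 and 4.66 and 8.20 CPM at D7, higher in one experiment and lower in the other. IL11 had 26.2 and 27.5 CPM at D4 and 26.6 and 24.5 CPM at D7, again with opposite signs. LIF, a cytokine of the IL-6 family, was the exception with 119 and 245 CPM at D4 and 172 and 340 CPM at D7, a log2 difference of 0.50 with a standard error of 0.18. Of the 10 tested SASP cytokines 5 were higher and 2 lower in both experiments (median 0.50), and of the 12 chemokines 6 and 2 (median 0.41). In both lists 2 genes passed an unadjusted p of 0.05, in each case higher at D7, against 2.17% of all genes. The lists are not separate, since CXCL1, with few counts, is 1 of the 2 in each, and CXCL5 and CXCL8 are also in both. The study names or shows 8 of these cytokines and 6 of these chemokines for the same samples, so the counts are not independent of that choice. The difference between the 2 successive steps, D10 minus D7 less D7 minus D4, was tested directly, and edgeR called 0 of 13798 genes (0%) for it, with 336 genes (2.44%) at an unadjusted p under 0.05 and 0 calls by DESeq2. At D10 the experiments were far apart, with 39.1 and 517 CPM for IL6 and 189 and 3012 CPM for CXCL8. Both genes were called higher at D10 against D7 (edgeR adjusted p = 0.0284 and 0.00642). The difference between the steps was 4.65 for IL6 and 5.78 for CXCL8 on the log2 scale. Its edgeR unadjusted p was 0.0043 and 0.0018, and its adjusted p was 0.966 for both. Without replicate 1 of D10 the number called for it was 495, and without replicate 2 it was 2.

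Transcription factors and other regulators were also among the genes with the smallest p. POU2F2 (ENSG00000028277.21, chromosome 19 from 42086110 to 42196585), an octamer-binding factor best known in B cells, had 5.51 and 11.3 CPM at D4 and 16.5 and 18.9 CPM at D7, with no overlap and a log2 difference of 1.13 (standard error 0.20). NR4A2, an orphan nuclear receptor of the immediate-early class, had 13.5 and 23.9 CPM at D4 and 18.3 and 53.8 CPM at D7. NR4A2 had already been called higher at D4 against D0, where it had 2.68 and 6.92 CPM, with a log2 difference of 2.05 (edgeR adjusted p = 0.0164). RIPOR3 had 70.6 and 95.2 CPM at D4 and 107 and 261 CPM at D7. Of the 21 tested AP-1 and immediate-early genes 8 were higher and 2 lower in both experiments, with a median of 0.24.

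Proteases and growth factors gave single genes rather than whole lists. MMP1 (ENSG00000196611.4, chromosome 11 from 102789920 to 102798160), the interstitial collagenase, had 660 and 617 CPM at D4 and 1361 and 1421 CPM at D7. The values of the 2 experiments were close on both days and did not overlap, and the log2 difference was 1.12 with a standard error of 0.34. MMP1 had been called higher at D4 against D0 as well, with 2.88 on the log2 scale (edgeR adjusted p = 0.0219). MMP3, stromelysin 1, had 26.9 and 9.10 CPM at D4 and 42.2 and 23.8 CPM at D7, while the 16 tested genes of the metalloprotease and TIMP list had a median log2 difference of 0.02. PLAT, the tissue plasminogen activator, had 2597 and 3353 CPM at D4 and 3451 and 6463 CPM at D7. STC1, stanniocalcin 1, had 267 and 359 CPM at D4 and 499 and 485 CPM at D7.

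BMP2, a bone morphogenetic protein, had 28.4 and 40.7 CPM at D4 and 50.3 and 86.3 CPM at D7, and SMAD1, which relays BMP signals, had 10.9 and 16.5 CPM and then 20.3 and 21.8 CPM. GDF5, another ligand of the same family, was lower at D7, with 6.13 and 5.07 CPM at D4 and 3.67 and 1.75 CPM at D7, and with 35.2% of its exonic length shared with the other strand. Over the 26 tested genes of the BMP branch 8 were higher and 8 lower in both experiments. FGF7, the keratinocyte growth factor made by fibroblasts, had 24.3 and 106 CPM at D4 and 44.8 and 144 CPM at D7. AREG, an EGF receptor ligand, had 11.9 and 16.1 CPM at D4 and 14.7 and 48.5 CPM at D7. PAPPA, which cleaves IGF-binding proteins, had 51.4 and 134 CPM at D4 and 96.8 and 189 CPM at D7, with 21.2% of its exonic length shared with the other strand. For FGF7, AREG and PAPPA the days overlapped across experiments, and D7 was the higher day within each.

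The basement membrane, network and fibril-associated collagens were higher on balance and the fibrillar ones were not. COL4A5 and COL4A6 are neighbours on chromosome X and encode chains of type IV collagen. COL4A5 had 182 and 261 CPM at D4 and 271 and 435 CPM at D7, and COL4A6 had 47.7 and 74.6 CPM and then 72.4 and 140.4 CPM, with log2 differences of 0.66 and 0.78 and standard errors of 0.19 and 0.22. Of the 17 tested genes of this list 11 were higher and 2 lower in both experiments, with a median of 0.24 (0.27 in experiment 1 and 0.20 in experiment 2). These are long genes, with a median exonic length of 9269 bases, and the median was 0.13 once a trend of the libraries with gene length, described further on, was removed. Of the 10 fibrillar collagens 4 were higher and 2 lower in both, with a median of -0.02. CTSK, a lysosomal protease that degrades collagen, had 15.6 and 13.3 CPM at D4 and 23.8 and 20.5 CPM at D7. On the lower side, ADAMTS15, a protease that cleaves aggrecan-type proteoglycans, had 4.73 and 4.70 CPM at D4 and 2.67 and 2.35 CPM at D7, and the cell-surface proteoglycan gene SDC4 had 312 and 392 CPM and then 236 and 306 CPM. Neither gene had overlapping days. The 19 proteoglycan and hyaluronan genes tested had 1 member higher and 8 lower in both experiments.

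The contractile genes that the study names or shows were lower at D7 in both experiments, and the other genes of that list were divided. Of the 18 tested genes of the smooth muscle contractile list 12 were lower and 1 higher in both, against 27.3% and 26.3% of all genes, and 7 had both D7 libraries below both D4 libraries, against 8.65%. The study names or shows 9 of the 18 for these samples (ACTA2, ACTG2, TAGLN, CNN1, CNN2, CNN3, TPM2, TNNT2 and ADRA1B), so their direction is not independent evidence. All 9 of these were lower in both experiments, with a median log2 difference of -0.52, and they include the 5 members past an unadjusted p of 0.05, all lower at D7. Of the other 9 members 3 were lower and 1 higher in both and 5 had opposite signs, with a median of -0.048 (0.00053 in experiment 1 and -0.29 in experiment 2). Over all 18 the median was -0.34, with -0.39 in experiment 1 and -0.37 in experiment 2.

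ACTA2 (ENSG00000107796.13, chromosome 10 from 88935074 to 88991339) encodes α-smooth muscle actin, the usual marker of myofibroblasts. It had 712 and 516 CPM at D4 and 491 and 319 CPM at D7, with both D7 libraries below both D4 libraries. The log2 difference was -0.61 with a standard error of 0.18, and -0.54 and -0.69 within the experiments. The other strand shares 30.1% of the exonic length of ACTA2. The gene ACTG2 (ENSG00000163017.13), on chromosome 2 from 73892314 to 73919865, encodes the enteric smooth muscle actin and had 608 and 425 CPM at D4 and 444 and 241 CPM at D7, a log2 difference of -0.62 with a standard error of 0.18. TAGLN, transgelin, had 1908 and 1286 CPM at D4 and 1325 and 900.1 CPM at D7, and CNN1, calponin 1, had 171 and 108 CPM and then 122 and 82.1 CPM. For ACTG2, TAGLN and CNN1 experiment 1 was higher than experiment 2 on both days, so the days overlapped while each experiment had less at D7. TNNT2, cardiac troponin T, had 12 and 8 counts at D4 and 4 and 3 at D7, and MYH11, smooth muscle myosin heavy chain, had 6 and 7 counts and then 3 and 2, which leaves both near the floor.

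Of the 14 contractile genes with a promoter in the RefSeq table, 4 held a match to the CArG box, the site of serum response factor, within 250 bases before a start site, against 1.5% of the 10021 tested genes and 1.16% of all promoters. The list was chosen as contractile genes, so its share of matches follows in part from that choice and says nothing about D7 against D4. Of these 4 genes, ACTG2 and CNN2 were lower at D7 in both experiments, and MYLK and SMTN had opposite signs in them. The window of ACTG2, which is described above, is printed 5′ to 3′ with the matches in capitals.
ACTG2 promoter, chr2:73892758-73893007, plus strand: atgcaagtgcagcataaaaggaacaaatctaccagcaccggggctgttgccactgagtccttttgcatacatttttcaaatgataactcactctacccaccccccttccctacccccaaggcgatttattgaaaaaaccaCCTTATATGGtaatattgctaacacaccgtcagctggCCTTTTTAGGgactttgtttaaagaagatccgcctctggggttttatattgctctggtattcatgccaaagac
The matches of ACTG2 begin 110 and 73 bases before the start site.

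**Figure D2:**
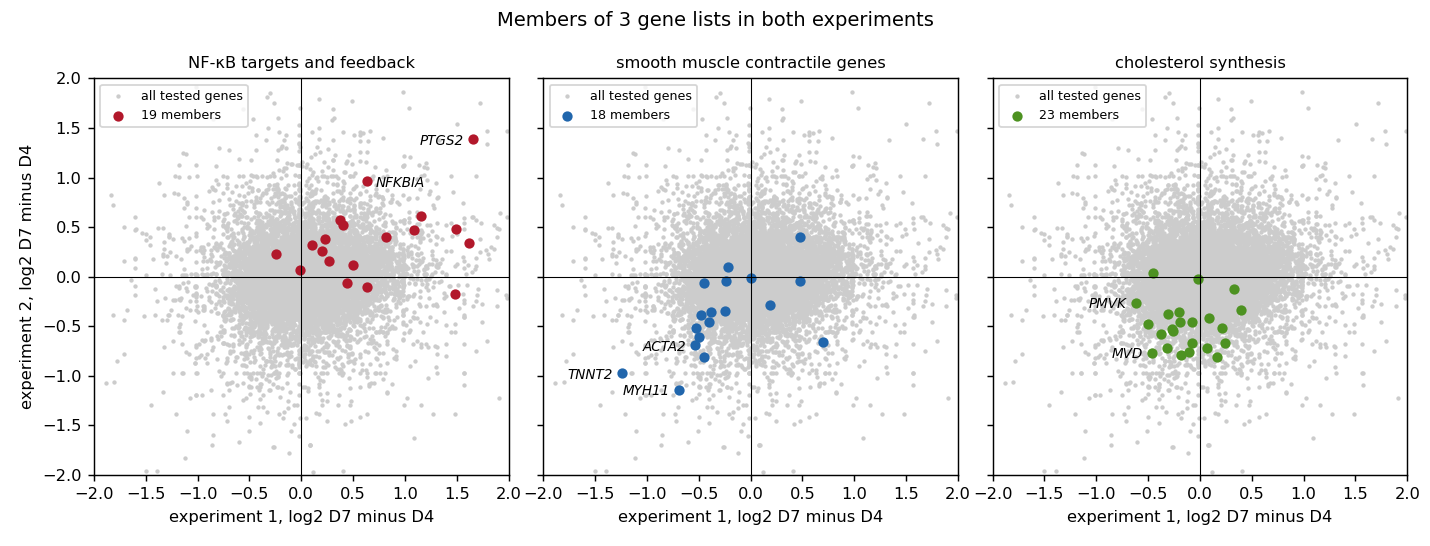
Log2 difference D7 minus D4 in experiment 1 (horizontal axis) and experiment 2 (vertical axis) for all tested genes (grey) and for the members of 3 lists (coloured), with 24 genes outside the axes. NF-κB targets lie mostly at the upper right, where 14 of 19 were higher in both experiments, and contractile and cholesterol genes mostly in the lower left, with 12 of 18 (9 of them named or shown by the study) and 15 of 23 lower in both.

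Genes of cholesterol synthesis were lower at D7, most clearly in experiment 2. Of 23 tested genes 15 were lower and 0 higher in both experiments, and 5 passed an unadjusted p of 0.05, all lower, against 1.52% of all genes. The median log2 difference was -0.31, with -0.18 in experiment 1 and -0.52 in experiment 2. MVD and MVK, which encode the mevalonate decarboxylase and the mevalonate kinase, had 136 and 60.6 CPM and 45.2 and 19.9 CPM at D4, and 98.8 and 35.5 CPM and 31.9 and 14.2 CPM at D7. PMVK, the phosphomevalonate kinase between them in the pathway, had 45.5 and 22.7 CPM at D4 and 29.6 and 18.9 CPM at D7. For all 3 genes experiment 1 was above experiment 2 on both days, so the days overlapped and only the differences within experiments separate D4 from D7. Fatty acid synthesis genes, 13 tested, had 5 lower and 0 higher in both, with medians of 0.07 and -0.22 in the 2 experiments.

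Of the 8 lower genes with the smallest p, 5 had both D7 libraries below both D4 libraries, against 8.65% of all genes. These 8 were picked by a small p and by being lower in both experiments, so that count follows in part from the choice. SEC61G, a subunit of the channel through which proteins enter the endoplasmic reticulum, had 89.8 and 70.5 CPM at D4 and 53.3 and 48.5 CPM at D7, a log2 difference of -0.65 with a standard error of 0.13. GTF2A2, a subunit of the general transcription factor TFIIA, had 71.9 and 64.0 CPM at D4 and 49.1 and 44.2 CPM at D7. DUSP14, a protein phosphatase, had 97.5 and 77.7 CPM at D4 and 70.0 and 53.6 CPM at D7. OPN3 and AP1S2 also did not overlap, with log2 differences of -0.67 and -0.49, and OPN3 has 45.5% of its exonic length shared with the other strand. CCND2, which encodes cyclin D2, had 244 and 47.5 CPM at D4 and 107 and 36.1 CPM at D7, a log2 difference of -1.19 in experiment 1 and -0.39 in experiment 2. MGARP and VSIR were lower in both experiments, with log2 differences of -0.72 and -0.53. Exons of other genes on the same strand cover 26.9% of the exonic length of MGARP and 13.8% of that of CCND2, where reads may also be shared.

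Several lists showed a difference mainly in experiment 1, and gene length moved with it. In experiment 1 the median log2 difference between D7 and D4 was -0.26 in the 1378 genes with the shortest exonic length (median 1299 bases) and 0.34 in the 1377 genes with the longest (median 12844 bases). In experiment 2 the same medians were -0.03 and 0.03. The correlation with log length across 13771 genes was 0.34 in experiment 1 and 0.01 in experiment 2. In experiment 1 the medians of D4 minus D0 went the other way, from 0.20 to -0.21, and both differences share the D4 library of that experiment. Beside this trend, the 29 tested nuclear genes of the respiratory chain, which are short, had 22 lower and 0 higher in both experiments, with medians of -0.35 and -0.08, and the 32 cytosolic ribosomal protein genes had 21 lower and 0 higher, with medians of -0.43 and -0.02. UQCRQ, a subunit of complex III, had 185 and 108 CPM at D4 and 127 and 93.9 CPM at D7, with a larger difference in experiment 1. The other strand shares 20.8% of the exonic length of UQCRQ. CYCS, cytochrome c, had 51.6 and 61.1 CPM and then 44.5 and 40.6 CPM, with the larger difference in experiment 2 (-0.21 and -0.59 on the log2 scale). Removing the length trend from each library gave medians of -0.20 and -0.21 for the 2 lists in place of -0.22 and -0.25. The medians of NF-κB targets and of cholesterol genes were 0.45 and -0.30 after the same step, and that of contractile genes was -0.26. After it the adjusted p of C3 was 0.0536 and edgeR again called 0 genes, with 436 at an unadjusted p under 0.05.

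**Figure D3:**
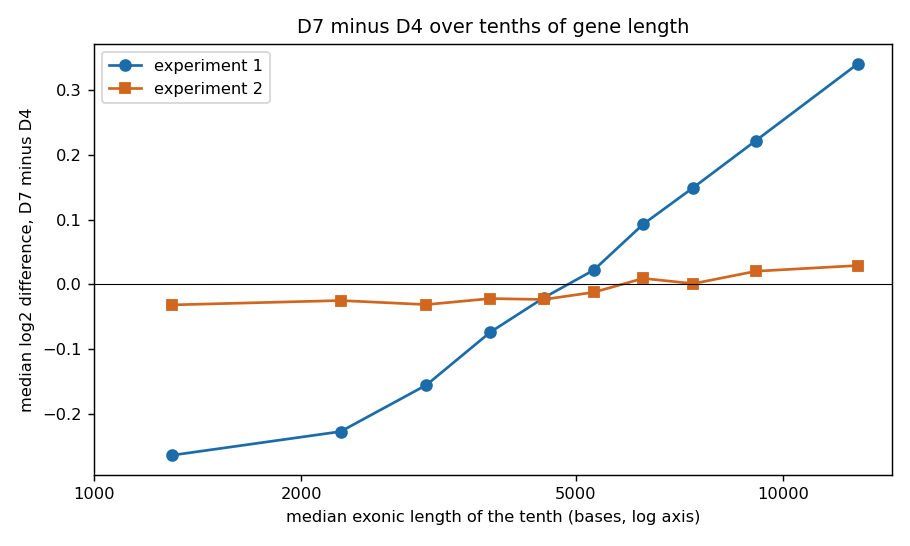
Median log2 difference D7 minus D4 in 10 groups of tested genes ordered by exonic length (log axis, bases), in experiment 1 (circles) and experiment 2 (squares). Experiment 1 goes from -0.26 to 0.34 along the axis and experiment 2 stays between -0.03 and 0.03.

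Interferon-stimulated genes were higher at D7 on balance. Of 22 tested genes 13 were higher and 2 lower in both experiments, with a median log2 difference of 0.26 (0.29 and 0.21), and 0 passed an unadjusted p of 0.05. STAT2, a transcription factor of the interferon response, had 124 and 149.6 CPM at D4 and 159 and 172 CPM at D7. IFIT3, an antiviral effector, had 21.6 and 20.8 CPM at D4 and 28.3 and 24.9 CPM at D7. Neither of these genes had overlapping days. For the same list the median was -0.67 for D4 minus D0 and -1.02 for D10 minus D7, comparisons that share the D4 and the D7 libraries with the one described here, and 9 of the 22 were called lower at D10 against D0. Without replicate 2 of D10 the median of D10 minus D7 was -0.56 and 8 of the 22 were called.

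**Figure D4:**
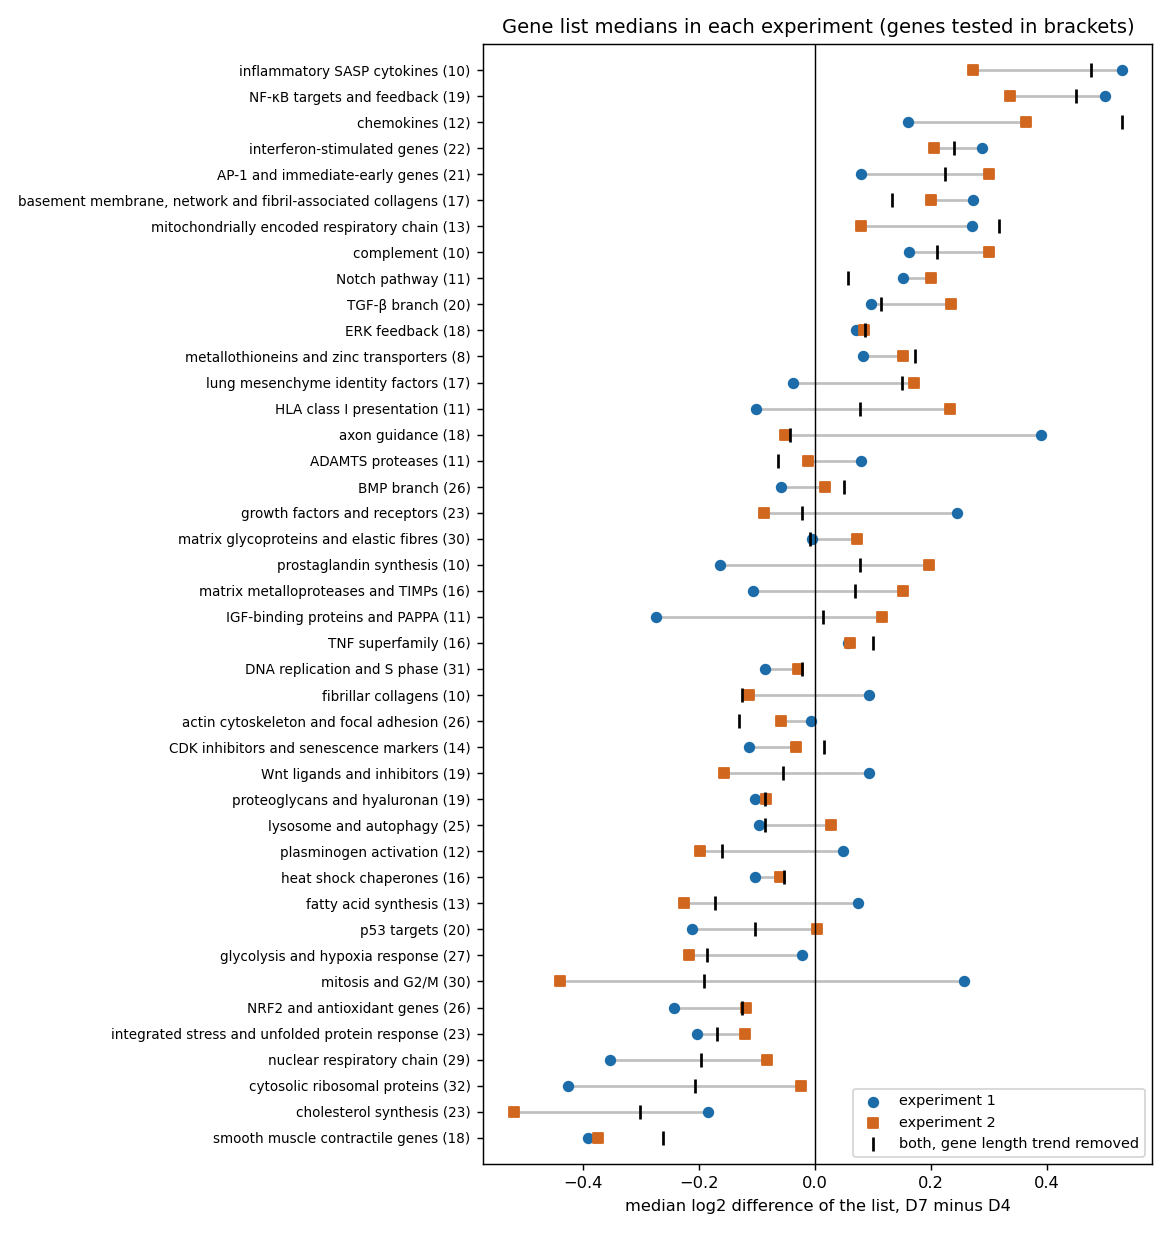
Median log2 difference D7 minus D4 of each of 42 gene lists in experiment 1 (circles), in experiment 2 (squares) and in the fit with the gene length trend removed (ticks), ordered by the fitted median of both experiments. NF-κB targets (0.50 and 0.34) and contractile genes (-0.39 and -0.37) have medians of the same sign in both experiments, while mitosis genes have 0.26 and -0.44.

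Over the 42 lists of functions, 13 had a positive median in both experiments, 12 a negative one in both and 17 had opposite signs. Medians beyond 0.2 in both experiments were seen for NF-κB targets, SASP cytokines, interferon-stimulated genes and basement membrane, network and fibril-associated collagens on the higher side, and for contractile genes on the lower side. With the length trend removed the collagen median was 0.13, and the contractile median rested on the 9 genes that the study names or shows. The 8 SASP cytokines that the study names or shows had medians of 0.28 in experiment 1 and -0.05 in experiment 2. The shared sign of that list thus rested on its other 2 members, and several of the 8 had few counts. Mitosis genes were among those that went opposite ways, since the 30 tested had a median of 0.26 in experiment 1 and -0.44 in experiment 2. The 31 tested genes of DNA replication and S phase had medians of -0.09 and -0.03, with 8 higher and 11 lower in both. Of the 23 genes of the integrated stress and unfolded protein response 14 were lower and 1 higher in both experiments, with a median of -0.20, and of the 26 NRF2 and antioxidant genes 13 were lower and 2 higher, with a median of -0.20 (-0.24 and -0.12 in the 2 experiments, and -0.13 with the length trend removed). A smaller median was found for the 14 CDK inhibitors and senescence markers (-0.05, with 2 higher and 5 lower in both). For the 20 genes of the TGF-β branch it was 0.17 (9 higher and 1 lower in both). That list pools ligands with genes such as TGIF1, an inhibitor by the study's account, which was higher in both. Its median therefore gives no direction for TGF-β signalling, which was not tested. The ligand genes TGFB1, TGFB2 and TGFB3 each went opposite ways in the 2 experiments. Over the 5 members that the study names or shows, the median was -0.0066 and 4 had opposite signs. The 27 glycolysis and hypoxia genes had 6 higher and 16 lower in both, with a median of -0.15, the 25 lysosome and autophagy genes 4 and 10, with a median of -0.07, and the 13 respiratory genes encoded by mitochondria 9 and 1, with a median of 0.22.

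Some genes were called between D7 and D4 only in alternatives, among them the fit of the 4 libraries alone. ITGA8, the α8 integrin, had 14.3 and 16.4 CPM at D4 and 29.5 and 53.8 CPM at D7, and then 67.8 and 3.55 CPM at D10. PDK4, a kinase that restrains pyruvate oxidation, had 2.64 and 2.61 CPM at D4 and 4.28 and 16.1 CPM at D7, and 17.7 and 1.97 CPM at D10. For both genes D10 was above D7 in experiment 1 and far below it in experiment 2, whose D10 library is the one with the lowest sum of fibroblast markers. Both were called in the fit of the 4 libraries alone, with log2 differences of 1.39 and 1.78, and were not called in the fit of all 8, where they had 1.55 and 2.13 with standard errors of 0.90 and 0.99. Without the D7 library of experiment 2 the fitted values were -0.14 for ITGA8 and -0.30 for PDK4. On the lower side the same fit of 4 libraries called OXTR, the oxytocin receptor, with 20.2 and 34.5 CPM at D4 and 16.7 and 10.4 CPM at D7, and IGFBP3, an IGF-binding protein, with 180.1 and 114 CPM and then 127 and 49.97 CPM.

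The direction of the D7 minus D4 differences was compared with D10 minus D0, which uses the other 4 libraries. Both comparisons come from 1 fit of all 8 libraries, so their tests share each gene's estimate of spread. Of the 688 genes called between D10 and D0, 613 (89.1%) had the same sign for D7 minus D4, against 61.3% of the 13110 genes not called. The 350 genes called higher at D10 had a median D7 minus D4 difference of 0.31 (0.37 in experiment 1 and 0.22 in experiment 2), and 237 of them (67.7%) were higher at D7 in both experiments. The 338 genes called lower had a median of -0.26 (-0.23 and -0.29), and 225 of them (66.6%) were lower in both. The calls depend on the shared spread, which includes how far the 2 experiments agree on D7 minus D4. The shares that moved the same way in both experiments are thus in part set by the choice of genes. Both D7 libraries were above both D4 libraries for 114 (32.6%) of the genes called higher, and below for 102 (30.2%) of those called lower. After removal of the length trend the 2 medians were 0.27 and -0.27. Seen from the other side, 133 of the 509 genes with an unadjusted p under 0.05 for D7 against D4 (26.1%) were called between D10 and D0 in the same direction and 1 in the opposite one, whereas 4.44% of all tested genes were called in the direction of their D7 minus D4 difference. A gene with a small estimated spread can pass both tests, so the shared fit raises this overlap by an amount that was not tested. The 4.44% is therefore not a like background, and the same holds without replicate 2 of D10. The number called between D10 and D0 was 40 without the block, so these groups depend on it. Without replicate 2 of D10 896 genes were called and 91.9% had the same sign. In that fit the 531 genes called higher had a median D7 minus D4 difference of 0.33, where 358 (67.4%) were higher in each experiment and 137 (25.8%) had D7 above D4 in all libraries, and the 365 called lower had a median of -0.28, where 255 (69.9%) were lower in each experiment and 109 (29.9%) had D7 below D4 in all libraries. The number of genes with an unadjusted p under 0.05 for D7 against D4 was then 1146, of which 315 (27.5%) were called at D10 in the same direction, against 5.81% of all tested genes. Without replicate 1 of D10, 1906 genes were called and 66.4% had the same sign.

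**Figure D5:**
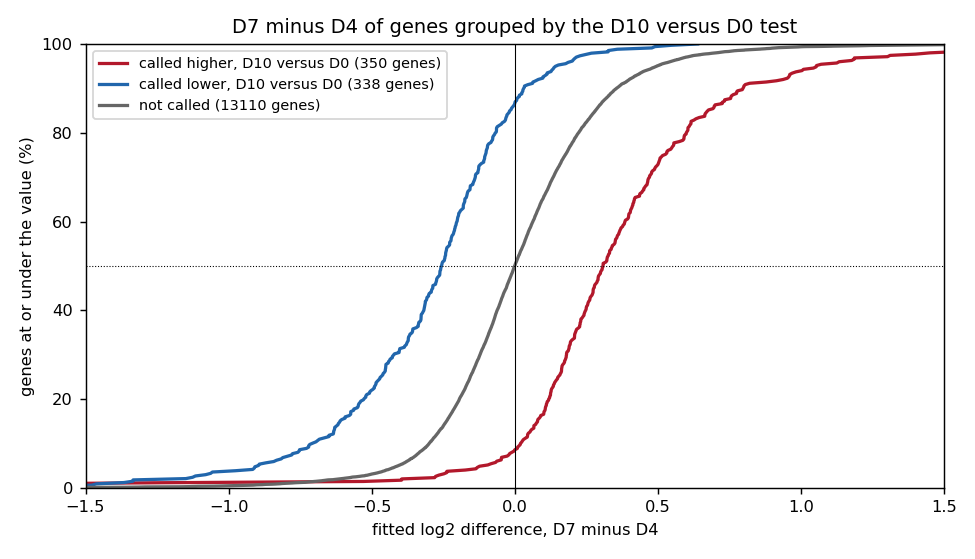
Cumulative share of genes (%) against the fitted log2 difference D7 minus D4, for genes called higher (350), called lower (338) and not called (13110) between D10 and D0, with 44 genes outside the axis. The curve of the genes called higher is shifted to the right, with a median of 0.31, and that of the genes called lower to the left, with a median of -0.26.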

How the data were processed

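RNA of 8 cultures was sequenced, 2 for each of the 4 groups. For 27696 genes, raw counts were deposited by the authors, from poly(A)-selected stranded libraries, and per the labels they used STAR 2.5 and the build GRCh38 (hg38). The counting tool, the annotation and the strand setting are not given in the sources used here. The authors also deposited 8 columns of RPM, depth-normalized values per the file headers, which were not used. Gene positions and exonic lengths were read from GENCODE 29, which holds 99.6% of the identifiers.

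Genes were filtered with edgeR's filterByExpr, scaled with TMM and fitted with edgeR 4.0.16 (glmQLFit, glmQLFTest, R 4.3.3) to all 8 libraries by group, with the experiment as a block, and called at an adjusted p of 0.05 (Benjamini-Hochberg). Levels are CPM with TMM scaling, and differences within an experiment used a prior count of 2. The replicate numbers pair the libraries because the methods describe 2 independent experiments, and same-numbered libraries deviated together from their group means across genes (r from 0.418 to 0.722 over 6 pairs of groups). The common dispersion was 0.0242 with the block and 0.0792 without it. A gene with at most 3 counts in each library of a group is at the floor, and these limits cover counting error only.

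The members, the 48 gene lists and the rules were chosen with earlier results of these data known. Named genes were the 8 higher and 8 lower genes with the smallest p among those of at least 5 CPM that moved the same way in both experiments, the member of each list with the smallest p, and genes the study names. The genes C1S, IRAK2, ICAM1, SOD2, TNFAIP2, TNFAIP3, NFKB1, NFKB2, RELB, CCL2, STC1, AREG, COL4A6, MYH11, MVD, MVK, CYCS, IFIT3, ITGA8, PDK4, OXTR and IGFBP3 were named after their values were seen. Lists are described by counts and medians and were not tested. Alternatives were DESeq2 1.42.0, its size factors, other filters, no block, the compared groups only, other thresholds, leaving out each library, and a fit chosen after seeing the data in which a lowess trend (span 0.3) of log2 CPM on gene length was removed from each library. The fits were tested on simulated data. Promoter sequences are from RefSeq (GRCh38.p14). Figures were drawn with matplotlib 3.10.9.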

Additional observations from a re-analysis of the deposited data

How the results depend on the processing

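The count of genes called between D7 and D4 was 0, and it stayed 0 without the replicate block, with DESeq2's size factors, with at least 10 counts in every library, with the gene length trend removed, and at the stricter thresholds. DESeq2 called 4 genes, the fit without a filter on low counts 44, and the fit of the compared groups only 43. Leaving out 1 library gave from 0 to 2 calls, with 1 without D0 replicate 1 or D0 replicate 2 and 2 without D10 replicate 1 or D10 replicate 2, which were C3, and in the latter case also PTGS2. For the difference between the successive steps 0 genes were called with and without the block, 134 without a filter, and from 0 to 495 when 1 library was left out, the highest without D10 replicate 1. Between D10 and D0 688 genes were called with the replicate block, 40 without the block, 1513 without a filter, 272 at an adjusted p under 0.01, and from 113 to 1906 when 1 library was left out, lowest without D0 replicate 2 and highest without D10 replicate 1, with 320 without D0 replicate 1.

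The share of genes with the same sign in both experiments was 53.6%, or 41.4% without a filter and 52.4% with the length trend removed. The share with the sign of D10 against D0 was 62.7%, or 56.5% and 61.8% in the same alternatives, and among genes called at D10 it was 89.1%, or 81.1% without a filter. The median of contractile genes was -0.34, with -0.30 without a filter, -0.28 with at least 10 counts in every library, -0.26 with the length trend removed, and -0.39 and -0.37 in experiments 1 and 2 alone, and it was -0.048 over the 9 members that the study does not name or show, an alternative chosen after seeing the data. That of NF-κB targets was 0.46, and 0.34 in experiment 2 alone.

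Among the values of named genes under alternatives 888 kept their direction and their side of the threshold, 57 newly passed it and 8 changed sign. When 1 library was left out, IL6 ranged from -0.52 without D7 replicate 1 to 1.00 without D7 replicate 2, with -0.16 without D4 replicate 2. IL11 ranged from -0.97 without D7 replicate 1 to 0.73 without D4 replicate 1, with 0.57 without D7 replicate 2, and was 0.053 with the length trend removed. Without D7 replicate 2 ITGA8 had -0.14, the lowest of a range up to 2.57, and PDK4 -0.30, the lowest of a range up to 3.51. RELB ranged from -0.12 without D7 replicate 1 to 0.49 without D7 replicate 2. The cause was not tested. With 2 libraries a group, a library left out leaves a single one, which is assumed to vary like the other groups. Genes with a few counts, such as CXCL1, TNNT2 and the interleukin-1 genes, are limited by depth.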
